A study of Mus musculus with 6 samples.

Results

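Described here are 10 genes whose products switch on replication-dependent histone genes, cut the 3′ ends of their transcripts or degrade them, namely Npat, Casp8ap2, Slbp, Lsm10, Lsm11, Zfp473, Cpsf3, Sympk, Eri1 and Upf1, 10 of the 22180 genes named on the arrays. They were chosen by function, with earlier results of these data known. Each had a single probe set annotated with its symbol alone, so no choice between such probe sets had to be made. Probe sets annotated with several symbols were not used for them. Symplekin had been listed under the spelling Symplk, which no row carries, and its annotated symbol Sympk was used, so 9 symbols matched as listed and 10 after this correction.

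The cells were BV2, mouse microglia immortalised for culture and labelled as wild type, and their RNA was measured on 6 Affymetrix gene arrays, of which 3 carried RNA of cells given telmisartan, GW9662 and lipopolysaccharide (LPS), called Tel+GW+LPS, and 3 carried RNA of cells given telmisartan and LPS, called Tel+LPS. Both groups thus received telmisartan, an antihypertensive that blocks angiotensin receptors and can partly activate PPARG, a nuclear receptor, and both received LPS, the bacterial endotoxin sensed by TLR4. GW9662, an irreversible PPARG antagonist, was what differed. Drugs were present for 2 h before 1 h of LPS, without doses in the labels, and no arrays without telmisartan or LPS were analysed here. The labels call samples of a group independent but name no separate cultures, so the p-values measure a spread that may in part be technical.

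Replication-dependent histone mRNAs are made in S phase and end in a conserved stem-loop in place of a poly(A) tail. NPAT, with FLASH (the product of Casp8ap2), gathers at histone gene clusters and drives their transcription. The stem-loop binding protein SLBP and the U7 small nuclear ribonucleoprotein then position the cleavage factors that cut the transcript. When DNA synthesis stops, SLBP with the helicase UPF1 and the exonuclease ERI1 takes part in rapid histone mRNA decay. The comparison asks whether the makers or the degraders of histone mRNA differed when the antagonist was added, in cells in which some histone transcripts did.

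Levels are log2 values from robust multi-array averaging (RMA), in which 1 unit is a doubling, and every difference is Tel+GW+LPS minus Tel+LPS. Genes with a mean level of at least 6.15, the median of all probe sets, were tested with limma over 12212 genes, and a gene was called at an adjusted p (Benjamini-Hochberg) under 0.05. Of the 10 factors, 9 passed this level filter, and Zfp473 lay below it. The arrays correlated at 0.990 to 0.996. Replicate 2 of Tel+GW+LPS and replicate 3 of Tel+LPS stood apart on the first principal component (42.8% of the variance over genes other than the 10), with scores of 7.55 and 14.6, against -8.15 to -0.98 on the other 4. Of 11 microglia markers matched, 9 passed the filter, Csf1r, Itgam, Trem2 and Tyrobp at mean levels from 10.79 to 11.13, C1qb at 9.51 and Aif1, C1qa, C1qc and Cx3cr1 at 6.85 to 7.02. The homeostatic markers P2ry12 (5.82) and Tmem119 (6.06) did not pass. Of 16 matched markers of other cells (neurons, astrocytes, lymphocytes, fibroblasts, oligodendrocytes), 9 passed, Syn1 at 8.52 and the other 8 at 6.19 to 6.99. No marker of any of these cell types was called.

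None of the 9 tested factors was called, with adjusted p from 0.947 to 1.00 in limma, where 0.0409% of all genes were called (3 higher, 0.0246%, and 2 lower, 0.0164%, of 12212). Eri1 had the largest difference among the 10, -0.24, and was the 1 tested factor with an unadjusted p under 0.05, a mark that 4.45% of all genes reached. The groups did not overlap for 3 of the 9, namely Npat and Eri1 with lower values in Tel+GW+LPS and Upf1 with higher ones, against 9.37% of all genes in either direction (4.01% higher and 5.36% lower). The differences of the 9 had a median of 0.00, with 4 positive and 5 negative, and those of all genes tested a median of -0.02. All 10 confidence intervals (95%, from -0.43 to 0.29 at their outer ends) lay within 0.5 of zero, as did those of 96.7% of all genes tested.

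**Figure D1:**
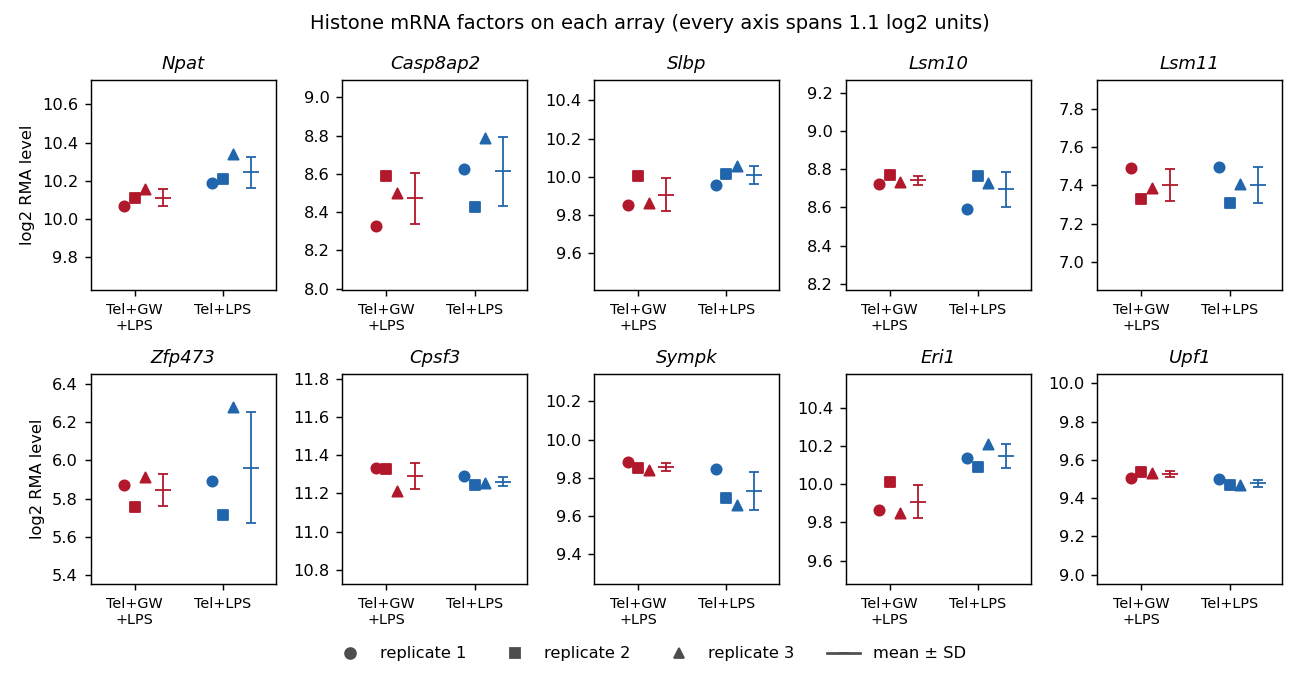
Log2 RMA level of the 10 genes on each array, with Tel+GW+LPS in red on the left and Tel+LPS in blue on the right of each panel, symbols for replicates 1 to 3 and bars for the mean ± SD (n = 3). The groups are apart for Npat, Eri1 and, by a very small gap, Upf1, and they overlap for the other 7 genes.

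Among the transcription factors, the values of Npat and Casp8ap2 were on average a little lower with GW9662, and neither gene was called. Npat, a coactivator that responds to cyclin E and CDK2, had levels of 10.07, 10.11 and 10.16 in Tel+GW+LPS, against 10.19, 10.21 and 10.34 in Tel+LPS. The highest array with GW9662 lay 0.03 under the lowest without it. The difference was -0.13 ± 0.07 (SE; 95% interval -0.29 to 0.02, adjusted p = 0.994), or 0.91-fold. Without the 2 arrays that stood apart it was -0.09, and when quantile normalization was repeated the groups overlapped.

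Casp8ap2 encodes FLASH, which binds NPAT at histone gene clusters and LSM11 in the cleavage complex. Its levels were 8.33, 8.59 and 8.50 in Tel+GW+LPS, against 8.62, 8.43 and 8.79 in Tel+LPS. The groups overlapped, and the highest value of each group stood on the array that was apart on the first principal component. The difference was -0.14 ± 0.11 (SE; 95% interval -0.39 to 0.10, adjusted p = 0.994). It was -0.05 without replicate 3 of Tel+LPS, -0.07 without replicate 1 of Tel+GW+LPS, -0.23 without replicate 2 of Tel+LPS and -0.11 without both arrays that stood apart.

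The 250 bases upstream of the annotated starts of 3 hub genes, Slbp, Npat and Casp8ap2, are shown beside those of the histone gene H4c1, the strongest call of the comparison, to set the regulators next to a gene they serve. The sequences are from RefSeq (GRCm38.p6), 5′ to 3′ on the gene's strand, with capitals for CCAAT on either strand, the letters of the NF-Y box, and for the E2F-type octamers TTTCGCGC, TTTGGCGC, TTTCCCGC and TTTGCCGC on either strand. The windows are chr5:33652575-33652824 (minus strand), chr9:53536797-53537046 (plus strand), chr4:32615220-32615469 (plus strand) and chr13:23761250-23761499 (minus strand).
Slbp: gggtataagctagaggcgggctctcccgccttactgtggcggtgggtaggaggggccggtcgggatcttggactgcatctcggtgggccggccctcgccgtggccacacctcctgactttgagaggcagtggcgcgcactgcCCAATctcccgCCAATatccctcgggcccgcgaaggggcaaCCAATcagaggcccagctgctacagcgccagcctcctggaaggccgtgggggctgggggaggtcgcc
Npat: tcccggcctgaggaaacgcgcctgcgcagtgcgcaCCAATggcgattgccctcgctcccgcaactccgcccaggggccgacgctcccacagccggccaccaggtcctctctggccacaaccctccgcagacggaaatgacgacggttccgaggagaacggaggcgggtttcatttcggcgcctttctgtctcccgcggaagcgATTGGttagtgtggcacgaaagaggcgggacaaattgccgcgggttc
Casp8ap2: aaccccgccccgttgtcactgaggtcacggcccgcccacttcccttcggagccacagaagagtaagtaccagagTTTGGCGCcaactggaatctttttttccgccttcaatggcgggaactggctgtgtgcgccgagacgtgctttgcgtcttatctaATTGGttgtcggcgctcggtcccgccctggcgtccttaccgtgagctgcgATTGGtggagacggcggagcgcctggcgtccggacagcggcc
H4c1: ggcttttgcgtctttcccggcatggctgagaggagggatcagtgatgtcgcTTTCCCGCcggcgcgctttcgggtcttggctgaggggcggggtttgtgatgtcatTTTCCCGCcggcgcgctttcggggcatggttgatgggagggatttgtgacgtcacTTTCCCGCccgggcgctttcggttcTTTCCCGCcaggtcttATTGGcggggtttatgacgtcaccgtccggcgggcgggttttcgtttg
CCAAT occurs 3 times for Slbp, 2 times each for Npat and Casp8ap2, and once for H4c1. It is in the windows of 5 of the 9 factors with an entry (Casp8ap2, Lsm10, Npat, Slbp and Zfp473) and in 33.8% of 32851 such windows. An E2F-type octamer occurs once for Casp8ap2, which alone of the 9 holds one, and 1.86% of all windows hold any. It occurs 4 times for H4c1, which was picked as the strongest call. Windows of other histone genes were not looked at one by one, so this count does not describe histone genes in general. These are matches of letters, and binding at these sites was not measured.

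SLBP binds the stem-loop and stays with the mRNA into translation. Slbp levels were 9.85, 10.01 and 9.86 in Tel+GW+LPS, against 9.96, 10.01 and 10.06 in Tel+LPS. Only replicate 2 of Tel+GW+LPS, 1 of the 2 arrays that stood apart, reached into the range of the other group. The difference was -0.10 ± 0.07 (SE; 95% interval -0.26 to 0.06, adjusted p = 0.994), and -0.13 without those 2 arrays.

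The U7 particle differs from spliceosomal ones in its ring of Sm proteins, in which LSM10 and LSM11 take the places of SmD1 and SmD2. Lsm10 had levels of 8.72, 8.77 and 8.73 in Tel+GW+LPS, against 8.59, 8.76 and 8.73 in Tel+LPS. Lsm11 had levels of 7.49, 7.33 and 7.39 in Tel+GW+LPS, against 7.50, 7.31 and 7.40 in Tel+LPS. Both genes overlapped between groups. The difference was 0.05 ± 0.07 for Lsm10 (SE; 95% interval -0.11 to 0.20) and 0.00 ± 0.08 for Lsm11 (SE; 95% interval -0.175 to 0.175). Without replicate 1 of Tel+LPS, the lowest array, the Lsm10 difference was -0.0033.

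Zfp473 encodes the zinc finger protein ZFP100, described in human cells as a partner of LSM11 and of SLBP on the stem-loop. Its levels were 5.87, 5.75 and 5.91 in Tel+GW+LPS, against 5.89, 5.72 and 6.28 in Tel+LPS. Replicate 3 of Tel+LPS was the only array above the filter level, and the other 5 arrays lay within a narrow range. The difference, taken from a fit without the level filter, was -0.12 ± 0.14 (SE; 95% interval -0.43 to 0.20), and 0.04 without that replicate.

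Cpsf3 and Sympk belong to the cleavage complex that histone pre-mRNAs share with polyadenylated ones. Cpsf3, the gene of the endonuclease CPSF73, had levels of 11.34, 11.33 and 11.21 in Tel+GW+LPS, against 11.29, 11.24 and 11.25 in Tel+LPS. Its groups overlapped, and the difference was 0.03 ± 0.06 (SE; 95% interval -0.12 to 0.18). Sympk, the gene of the scaffold symplekin, had levels of 9.88, 9.85 and 9.84 in Tel+GW+LPS, against 9.85, 9.70 and 9.66 in Tel+LPS. Its arrays with GW9662 agreed closely, and replicate 1 of Tel+LPS reached into their range by 0.0074. The difference was 0.13 ± 0.07 (SE; 95% interval -0.04 to 0.29, adjusted p = 0.994), the largest positive one of the 10, and 0.04 with array weights.

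**Figure D2:**
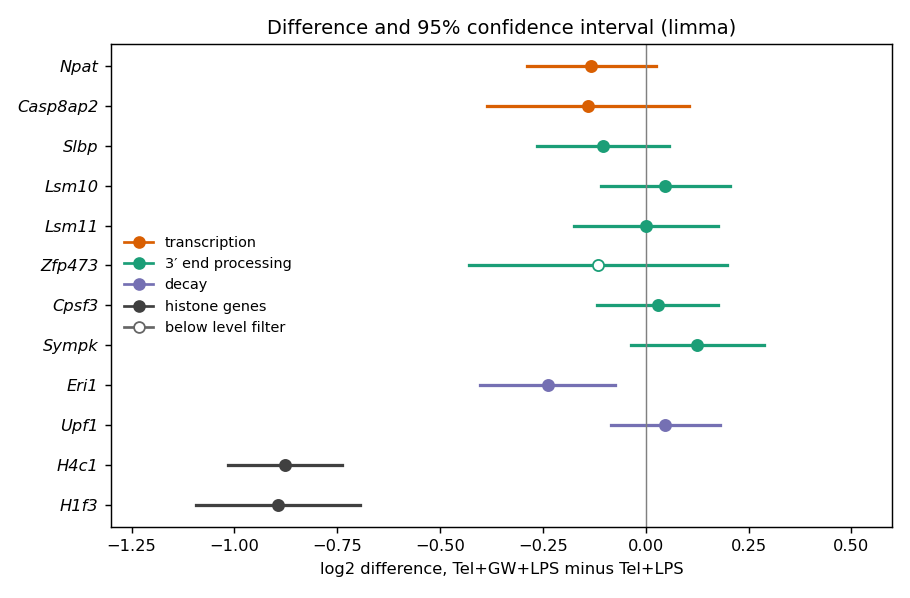
Log2 difference (Tel+GW+LPS minus Tel+LPS) with its 95% confidence interval from limma for the 10 genes, coloured by role, and for the histone genes H4c1 and H1f3. Both histone genes were picked for the smallest p among the histone genes. The interval of Eri1 (-0.40 to -0.07) is the 1 of 10 that leaves out zero, and those of H4c1 and H1f3 end at -0.74 and -0.70, below all 10.

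The degraders Eri1 and Upf1 had differences of opposite sign, and neither was called. ERI1 is a 3′ exonuclease that binds the histone stem-loop together with SLBP and trims the end of the mRNA. Eri1 levels were 9.87, 10.01 and 9.85 in Tel+GW+LPS, against 10.14, 10.09 and 10.21 in Tel+LPS. The groups were apart by 0.08, and replicate 2 with GW9662 was the nearest to the other group. The difference was -0.24 ± 0.07 (SE; 95% interval -0.40 to -0.07), or 0.85-fold, with an unadjusted p of 0.0101 and an adjusted p of 0.947 in limma. It ranked 129th of 12212 genes by p, and 2.52% of all genes differed by at least as much.

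The Eri1 difference was -0.29 to -0.21 with any 1 array left out and -0.26 without both arrays that stood apart, and the groups stayed apart under either rescaling. Its smallest adjusted p in any alternative was 0.1002, with array weights. UPF1, an RNA helicase of nonsense-mediated decay, is recruited by SLBP to histone mRNAs. Upf1 levels were 9.51, 9.53 and 9.53 in Tel+GW+LPS, against 9.499, 9.47 and 9.47 in Tel+LPS. The groups were apart by 0.0092, and the SD was 0.015 in Tel+GW+LPS and 0.018 in Tel+LPS. The difference was 0.05 ± 0.06 (SE; 95% interval -0.09 to 0.18, adjusted p = 0.994). This SE is the one moderated by limma. With no moderation it was 0.014, with an unadjusted p of 0.0252 and an adjusted p of 0.884 in the lmFit test.

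Across the 6 arrays, which all genes share, some factors varied together, given here as a description. Slbp and Eri1 went together (r = 0.89), as did Upf1 and Sympk (r = 0.84), while Npat and Sympk ran opposite (r = -0.89). With the first principal component the correlation was 0.90 for Casp8ap2, 0.71 for Slbp, 0.65 for Zfp473, 0.63 for Eri1 and 0.61 for Npat, and from -0.43 to 0.07 for the other 5. The part of this component in the differences was not tested, and the values without the 2 arrays stand beside Npat, Casp8ap2, Slbp and Eri1.

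By the same measure, the pathway or histone genes most like Slbp over the 6 arrays were the histone gene H2bc9 (r = 0.96), the replication licensing gene Cdc6 (r = 0.95) and the mitotic kinase gene Cdk1 (r = 0.94), out of 101 candidates. Those most like Npat were Rrm2, which encodes a subunit of ribonucleotide reductase (r = 0.93), the decapping enzyme gene Dcp2 (r = 0.88) and the termination factor gene Pcf11 (r = 0.85). Of all genes tested, from 0.516% to 2.58% had an r at least as high. The named genes were picked as the highest of 101 candidates for each factor, which by itself favours a high r.

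No gene was called in 5 lists of other genes of these pathways. Of 7 tested transcription partners, 3 were positive and 4 negative (median -0.02). Ccne1, the gene of cyclin E1, which with CDK2 activates NPAT, differed by -0.15 ± 0.07 with groups apart, and Trrap, the gene of a cofactor recruited by NPAT, by 0.08 ± 0.07. Hinfp, whose product binds H4 promoters, had a mean level of 8.80 and a difference of 0.04 ± 0.08; it was named after its value was seen.

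Of 11 processing partners, 3 were positive and 8 negative (median -0.04). Snrpd3, the gene of a core Sm protein of the U7 ring, differed by -0.10 ± 0.08, and Cpsf2, the gene of the inactive partner of CPSF73, by -0.11 ± 0.09. Of 13 factors of ordinary polyadenylation, 4 were positive and 9 negative (median -0.05). Pcf11 differed by -0.28 ± 0.12 with overlapping groups, and Cpsf7, of cleavage factor I, by -0.11 ± 0.07 with groups apart by 0.017. The groups were apart for 3 of the 13, all with lower values in Tel+GW+LPS, against 5.36% of all genes lower.

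Of 17 decay partners, 5 were positive and 12 negative (median -0.07). The decapping gene Dcp2 differed by -0.19 ± 0.11 and the 5′ exonuclease gene Xrn1 by -0.19 ± 0.13, both with overlapping groups. Of 7 genes of histone mRNA translation, export and SLBP turnover, 2 were positive and 5 negative (median -0.04). Cdk1, whose product phosphorylates SLBP for its destruction after S phase, differed by -0.18 ± 0.08, and Mif4gd, the gene of the SLBP-interacting translation factor SLIP1, by 0.08 ± 0.06. All these partners had an adjusted p of 0.994 or above in limma, and negative differences made up 58.8% of all genes tested.

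The transcripts of the histone genes H4c1 and H1f3 fell with GW9662. Of 19 tested histone genes, 2 were called, both lower, and 17 of 19 differences were negative, with a median of -0.26. That median was -0.18 with no level filter and -0.17 with a stricter one. H4c1 had levels of 6.34, 6.36 and 6.30 in Tel+GW+LPS, against 7.17, 7.23 and 7.23 in Tel+LPS, a difference of -0.88 ± 0.06 (SE, adjusted p = 0.00449 in limma). The linker histone gene H1f3 had levels of 8.67, 8.998 and 8.82 in Tel+GW+LPS, against 9.72, 9.73 and 9.73 in Tel+LPS, a difference of -0.90 ± 0.09 (SE, adjusted p = 0.0341 in limma). Over every probe set of a single histone class, with no level filter, 8 of 8 were negative for H4 (median -0.51), 12 of 12 for H3 (median -0.29), 12 of 13 for H2B (median -0.26), 4 of 4 for H1 (median -0.10) and 13 of 18 for H2A (median -0.05). These include probe sets far below the filter level, such as H1f1 (mean level 3.47) and H4c2 (3.81). All H3 probe sets carried several symbols. Negative differences made up 58.8% of all genes tested. Near-identical copies can share probes, so which copy fell is uncertain and the counted probe sets may not be independent. In RNA of whole cultures, fewer cells in S phase and less histone mRNA per cell cannot be told apart.

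Both histone calls were lost without replicate 1 or 3 of Tel+GW+LPS or replicate 1 of Tel+LPS, and 1 of them without replicate 2 or 3 of Tel+LPS, while their differences stayed between -0.98 and -0.82. The lower ends of the factors' intervals, at most 0.43 below zero, did not reach the upper ends of the H4c1 and H1f3 intervals. Both genes were named for the smallest p among the histone genes, so this contrast follows in part from that choice. Other tested histone genes had intervals that overlapped those of the factors, such as H1f5 (-0.37 to 0.34) and H4c9 (-0.38 to -0.04). Those of H4c14 (-1.48 to -0.82) and H4c8 (-1.18 to -0.66) did not overlap them. No test of factors against histones as groups was made.

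**Figure D3:**
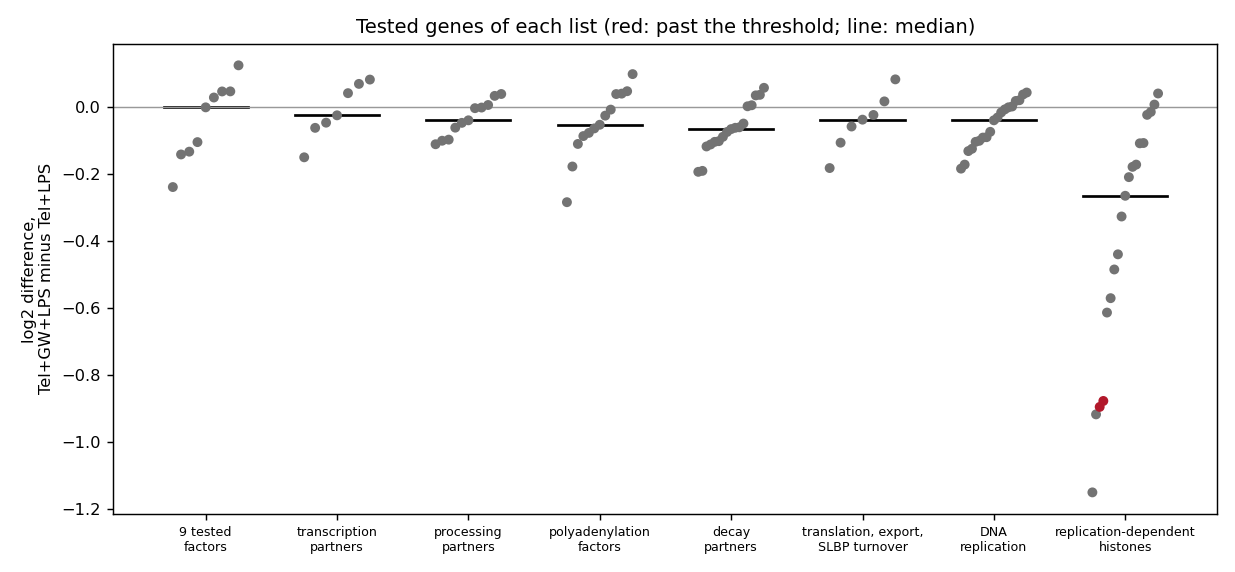
Log2 difference (Tel+GW+LPS minus Tel+LPS) of each tested gene, ordered within its list, with a line at the list's median and called genes in red. The 9 tested factors and the partner and DNA replication lists spread between -0.28 and 0.13, and the 19 histone genes reach down to -1.15.

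Genes of DNA replication, which are active when histone genes are, gave no call among 19 tested, with 6 positive and 13 negative differences (median -0.04, and -0.11 without replicate 2 of Tel+GW+LPS). Cdc6 differed by -0.17 ± 0.08 with overlapping groups and Rrm2 by -0.12 ± 0.06 with groups apart, both at an adjusted p of 0.994 in limma. The median level of this list on each array, relative to each gene's own mean, was -0.09, 0.05 and -0.05 in Tel+GW+LPS and 0.02, 0.0096 and 0.04 in Tel+LPS. The same measure for the histone genes was -0.24, -0.21 and -0.04 in Tel+GW+LPS and 0.11, 0.30 and 0.09 in Tel+LPS, and for the 9 factors 0.0046, 0.05 and -0.02 against 0.01, -0.03 and 0.0086. The histone values were apart between groups, and those of the factors overlapped. Those of the DNA replication genes overlapped only through replicate 2 of Tel+GW+LPS, an array that stood apart on the first principal component.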

How the data were processed

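Gene expression was measured in 6 BV2 samples. Per the submitters' processing notes the authors used Affymetrix Expression Console with RMA, and per the file headers (Affymetrix Power Tools 1.4.1.46) the deposited log2 values were background corrected, quantile normalized over the arrays and median polished, so a shift of most transcripts would not show. The build behind the authors' probe annotation is not given in the sources used here, and the printed sequences are from RefSeq (GRCm38.p6). Of 41345 probe sets, 23521 carry 1 symbol in the platform annotation, 1820 several and 16004 none. Each gene was its brightest single-symbol probe set. Tests used lmFit and eBayes of limma 3.58.1 (R 4.3.3) with a term for the group (4 residual degrees of freedom), and the number of arrays limits the precision. The fit was tested on simulated data.

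The 10 factors, lists and tests were chosen with earlier results of these data known. Besides the factors, the 2 genes of smallest p per list and the 3 most like Slbp and Npat were named. Listed pathway genes that matched no single-symbol probe set were not analysed here. Alternatives covered the level filter, scaling, weights, moderation, probe sets, rounding, a replicate block and each array left out.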

Additional observations from a re-analysis of the deposited data

How the results depend on the processing

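No factor was called under any of the 17 alternatives, and no pathway list held a called gene in any of them. The differences of Npat, Casp8ap2, Slbp, Cpsf3, Sympk, Eri1 and Upf1 kept their sign throughout, with ranges of -0.16 to -0.09, -0.23 to -0.05, -0.15 to -0.07, 0.0045 to 0.07, 0.04 to 0.18, -0.29 to -0.21 and 0.03 to 0.07. Lsm10 ranged from -0.0033 to 0.082 with 1 array left out and was 0.12 with array weights. Lsm11, at zero, ranged from -0.0476 to 0.0463 with 1 array left out, and was 0.0148 with centred arrays, 0.0150 with repeated quantile normalization and 0.038 without both arrays that stood apart, a setting added after the data were seen. Under the stricter filter Lsm11 was not tested. Besides Eri1, the unadjusted p went under 0.05 for Upf1 with no moderation (0.0252 in the lmFit test) and for Casp8ap2 with array weights (0.043 in limma). It did so for Sympk without replicate 1 of Tel+LPS (0.0428 in limma).

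The number of genes called over all genes was 5, with 543 at an unadjusted p under 0.05. It was 0 to 2 with 1 array left out, 0 without both arrays that stood apart (944 unadjusted), 1 with no filter, 10 with either rescaling, 13 with a trend, 49 with array weights and 0 with no moderation (610 unadjusted). For histone genes it was 2, and 0 to 2 with 1 array left out, 0 without both arrays or with no moderation, 1 with no filter or a stricter one, 4 with either rescaling or a trend and 6 with weights. The medians of the 5 pathway lists lay between -0.11 and 0.0012 over all alternatives. The causes were not tested.

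With the replicate number as a block, 0 genes were called over all genes (379 unadjusted) and 0 histone genes. The numbers share no source in the labels. Deviations of same-numbered arrays correlated at 0.29, -0.45 and -0.12, and not every array correlated best with its own number.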
